A study of Mus musculus with 3 samples.

Results

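Distal ETO2 peaks that were called in replicate 1 but not in replicate 2, and that carry a GATA site at their summit, are described here. They were chosen by position and sequence from the replicate 1 peak list: a peak had to overlap no replicate 2 peak by even 1 bp, its midpoint had to lie more than 1 kb from every protein-coding transcription start site, and the 100 bp centred on its summit had to hold a GATA site on either strand. A GATA site is the motif WGATAR, that is GATA with A or T before it and A or G after it. Of the 2335 replicate 1 peaks, 1332 (57.0%) overlapped no replicate 2 peak, 1066 of these were distal, and 708 of those (66.4%) had a GATA site. The 708 members thus made up 30.3% of the replicate 1 list. Absence from replicate 2, distance and the GATA site were the rule itself and are not results.

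The study mapped ETO2 by ChIP-seq, the sequencing of DNA that co-precipitates with a protein, in mesoderm able to form blood. Wild-type mouse ES cells of C57Bl/6 X Sv129 background were grown as embryoid bodies, FLK1+ cells were taken at day 4 by the sample labels (the design text gives day 3.5), and chromatin was precipitated with an anti-ETO2 antibody. There were 2 ChIP samples, from differentiations described as independent, and 1 input sample. Replicate 1 peaks were called against the input, whereas replicate 2 peaks were called without one, and both lists carry the same ChIP name, while the sample labels and the study's methods describe separate replicates. All groups were wild type, and a control antibody or ETO2-deficient cells were not analysed here. The lists give positions and enrichment only, so the FLK1+ identity of the cells was not checked against marker expression.

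ETO2, the product of Cbfa2t3, is a co-repressor without a known DNA-binding domain of its own. It is brought to DNA by a complex in which the basic helix-loop-helix factor SCL (also called TAL1) and an E protein contact an E-box, GATA factors contact a GATA site, and LMO2 and LDB1 bridge them. The E-box may be reduced to a half-site, CTG, placed at a fixed distance from the GATA site.

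The summit windows of some of the strongest members are shown because they carry an arrangement found in 263 of the 708 regions, a CTG followed on the same strand by 8 to 10 bases and then GATA. Capitals mark GATA sites and the CTG and GATA of this arrangement, each window is 100 bp of the plus strand of mm9 named by its nearest gene, and CTG and GATA appear as CAG and TATC where the arrangement lies on the minus strand.
Fbxo34 (chr14:48142222-48142321): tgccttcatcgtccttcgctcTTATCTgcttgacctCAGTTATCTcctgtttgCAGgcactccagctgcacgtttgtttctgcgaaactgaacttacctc
Cacna1i (chr15:80270747-80270846): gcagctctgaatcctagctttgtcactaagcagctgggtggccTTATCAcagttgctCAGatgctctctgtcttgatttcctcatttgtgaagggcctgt
Mast4 (chr13:104010875-104010974): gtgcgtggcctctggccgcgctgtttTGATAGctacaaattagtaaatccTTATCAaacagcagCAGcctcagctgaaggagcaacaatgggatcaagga
Dusp4 (chr8:35846416-35846515): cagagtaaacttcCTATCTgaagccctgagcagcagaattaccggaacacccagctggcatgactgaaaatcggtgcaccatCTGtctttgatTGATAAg
Slc44a5 (chr3:153915382-153915481): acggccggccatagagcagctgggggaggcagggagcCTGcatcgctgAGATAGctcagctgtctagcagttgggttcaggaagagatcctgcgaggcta
Efnb2 (chr8:8516573-8516672): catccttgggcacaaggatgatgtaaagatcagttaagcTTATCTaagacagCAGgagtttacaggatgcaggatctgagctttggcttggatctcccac
Ikzf1 (chr11:11629393-11629492): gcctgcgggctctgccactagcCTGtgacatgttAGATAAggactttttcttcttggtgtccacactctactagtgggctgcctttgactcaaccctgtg
In Cacna1i, Mast4, Dusp4 and Slc44a5 the spacing was 9 bases, in Efnb2 it was 8, in Ikzf1 it was 10, and in Fbxo34 spacings of 9 and 10 were both present.

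Other members had a GATA site without that arrangement, and they are shown for contrast. They include the 3 members of highest fold enrichment and 1 member each for Tgfbr3, Zfpm1 and Tbx5. These genes encode a TGF-beta co-receptor, a GATA cofactor and a heart transcription factor. The last 3 members are named by the nearest start site, which was 72.2, 33.0 and 41.0 kb away.
Gm17541 (chr12:4686876-4686975): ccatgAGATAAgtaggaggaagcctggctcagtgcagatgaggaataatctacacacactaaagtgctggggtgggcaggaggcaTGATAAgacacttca
BC003266 (chr4:126940672-126940771): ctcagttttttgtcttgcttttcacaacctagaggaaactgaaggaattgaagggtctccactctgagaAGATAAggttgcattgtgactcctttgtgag
Gm1631 (chr2:71563346-71563445): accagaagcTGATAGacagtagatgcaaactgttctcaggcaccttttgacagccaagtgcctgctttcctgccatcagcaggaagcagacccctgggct
Tgfbr3 (chr5:107489721-107489820): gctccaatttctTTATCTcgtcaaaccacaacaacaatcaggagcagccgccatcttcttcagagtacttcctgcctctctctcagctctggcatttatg
Zfpm1 (chr8:124838934-124839033): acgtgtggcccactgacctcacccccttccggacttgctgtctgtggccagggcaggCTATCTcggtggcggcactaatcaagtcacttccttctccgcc
Tbx5 (chr5:120325582-120325681): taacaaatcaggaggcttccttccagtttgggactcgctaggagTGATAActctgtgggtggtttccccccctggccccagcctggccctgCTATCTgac
Gm17541 and Tbx5 had 2 GATA sites in the window, and each of the others had 1.

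At their summits the members were mostly weakly covered. Whole fragment numbers were recovered from the authors' enrichment and p-values, and the members had from 13 to 62 fragments at the summit with a median of 23 (quartiles 19 and 28.25). Fold enrichment, the scaled ChIP fragments plus 1 over the local background plus 1, ran from 2.41 to 12.7 with a median of 4.99. The local background itself had a median of 5.0 fragments at input depth, as compared with 6.0 over all replicate 1 peaks. The genome average was taken from the lowest background in the replicate 1 list, 4.06 fragments, so no peak could lie below it. Of the members, 76.1% had a background above that average. Members were 196 to 838 bp wide, with a median of 251 bp. Shared distal GATA peaks, which meet the same rule except that they overlap a replicate 2 peak, numbered 687, with medians of 40 fragments, 7.21-fold enrichment and 340 bp. Distal replicate 1-only peaks without a GATA site numbered 358, with medians of 21 fragments and 4.41-fold enrichment. These values belong to the contrast that chose the members, so they were not tested.

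Members became rarer as the number of fragments rose. Across the quartiles of all replicate 1 peaks, there were 268 members with 12 to 21 fragments, 240 with 22 to 27, 155 with 28 to 37 and 45 with 38 to 206. Read the other way, 15.2% of distal GATA peaks in the lowest quartile were shared with replicate 2, then 28.1%, 53.5% and 89.1%. Distal peaks without a GATA site gave 10.8%, 31.9%, 60.5% and 88.5% in the same quartiles. The lowest replicate 2 peak had 18 fragments, and 96 members (13.6%) had fewer than that in replicate 1. These counts were not scaled to the coverage of each library, so they do not place the 96 members below the replicate 2 limit. Average coverage of the genome differed as well, at 3.02 fragments in the replicate 1 ChIP, 4.06 in the input and 5.19 in the replicate 2 ChIP. These values came from the peak lists, and the mapped read totals that the study states, not used here, rank replicate 1 as the deeper ChIP library, a conflict that was not resolved. The parts of depth and of the missing input in the absence from replicate 2 were not tested.

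**Figure D1:**
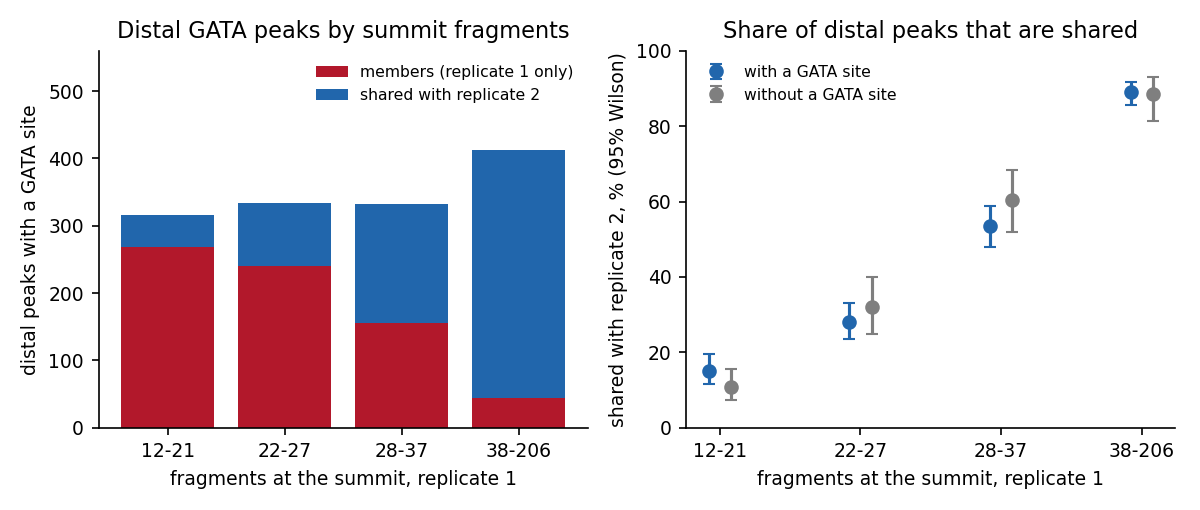
Distal peaks by the number of fragments at the summit in replicate 1 (x axis, quartiles of all replicate 1 peaks). Left, stacked bars count distal GATA peaks, with 268, 240, 155 and 45 members; right, points give the percent shared with replicate 2 and bars 95% Wilson intervals, rising from 15.2% to 89.1% with a GATA site and from 10.8% to 88.5% without.

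Few members had a replicate 2 peak nearby. A replicate 2 peak lay within 500 bp of 10 members, within 1000 bp of 15 and within 10 kb of 77 (10.9%). Just inside the rule, the member near Sh3pxd2a (chr19:47503395-47503612, 18 fragments, 3.14-fold) lay 90 bp from a replicate 2 peak, and that near Nrxn3 lay 102 bp away. Just outside it, the peak near 1700034H15Rik (37 fragments, 6.61-fold) overlapped a replicate 2 peak by 87 bp, and that near Mtus1 by 93 bp. At the distance limit, the closest member to a start site was 1011 bp from Vangl1, and the farthest promoter peak with a GATA site was 931 bp from Arhgef40.

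All 708 members stood in the authors' list for the whole series with the same coordinates. That list was not shown to be independent of the replicate 1 list, and no such share is given here for other replicate 1 peaks. Presence in it is therefore a description and not separate evidence for the members. Repeated sequence was uncommon among them: in 34 members (4.80%) fewer than 80% of the 24-base words of the summit window occurred once in the genome. Members lay on every chromosome except Y. Chromosome 2 held 62 and chromosome 11 held 61, the latter at 0.501 members per Mb, whereas the X chromosome held 11, at 0.0660 per Mb. Chromosome copy number and mappable length were not used to scale these densities. The whole replicate 1 list held 186 peaks on chromosome 2, 184 on chromosome 11 and 30 on X. High counts on chromosomes 2 and 11 and a low count on X were thus not particular to the members. Chromosome 8 differed, with the most replicate 1 peaks of any chromosome, 209, but 47 members. These counts were not tested. On chromosome 8, which held several of the loci named here, the median local background was 6.66 fragments and the median fold enrichment 4.55.

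The members were spread between introns and intergenic DNA. Midpoints of 349 (49.3%, 95% Wilson interval 45.6 to 53.0) lay in introns, 344 (48.6%) between genes, 10 in noncoding exons, 3 in coding exons and 2 in UTRs. Midpoints were a median of 27.6 kb from a start site, with quartiles of 9.41 and 71.2 kb, as compared with 24.4 kb for shared distal GATA peaks and 21.3 kb for replicate 1-only distal peaks without a GATA site. In classes, 97 members (13.7%) lay 1 to 5 kb from a start site, 201 (28.4%) 5 to 20 kb, 273 (38.6%) 20 to 100 kb and 137 (19.4%) over 100 kb. The midpoint was upstream of the nearest start site for 45.2% of members and for 52.1% of shared distal GATA peaks.

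Distances to the nearest shared peak were compared between members and replicate 1-only distal peaks without a GATA site. Whether either class gathers around shared peaks more than other positions of the genome do was not tested. Within 50 kb of a shared peak lay 137 members (19.4%, 16.6 to 22.4), against 19.8% (16.0 to 24.3) of replicate 1-only distal peaks without a GATA site. The difference of -0.48 percentage points had a 95% interval of -5.70 to 4.40 and was not significant (2-sided Fisher's exact test, p = 0.870). At 10 kb the shares were 10.3% and 11.2% (p = 0.674) and at 100 kb 25.8% and 28.8% (p = 0.307), and the adjusted p of the exact test was 0.870 for each of the 3 distances. Shared distal GATA peaks had another shared peak within 50 kb in 28.4% (25.1 to 31.9) of cases, which was not tested against the members. Among the 708 members, 12 had another member within 1 kb, 47 within 10 kb and 113 within 50 kb. No other class of peaks was counted in this way, and whether members cluster was not tested.

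The number, place and form of the GATA sites within the window were described. The 708 windows held 1008 sites, with 1 site in 63.8% of windows, 2 in 30.2% and 3 or more in 5.93%. The site nearest to the summit was a median of 17 bp away, and it lay within 10 bp in 33.9% of members, within 20 bp in 56.9% and within 30 bp in 76.8%. The rule kept every site inside the 100 bp window, so these distances are a description. Shared distal GATA peaks, not tested against the members here, had a median of 18 bp and 64.3%, 31.0% and 4.66% of windows holding 1, 2, and 3 or more sites. Of the 1416 flanking windows of the members, 100 bp long and centred 500 bp to each side, 248 (17.5%) held a site. Since the rule required a site at the summit, the contrast between summit and flank was not tested.

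The choice among the 4 forms of the site was not part of the rule. AGATAA made up 51.6% of member sites, TGATAA 23.1%, AGATAG 15.8% and TGATAG 9.52%. In shared distal GATA peaks the shares were 51.2%, 25.4%, 14.2% and 9.20%, and in member flanks 36.3%, 20.6%, 27% and 16.1%. Forms ending in A were thus the more frequent at the summits of either class.

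**Figure D2:**
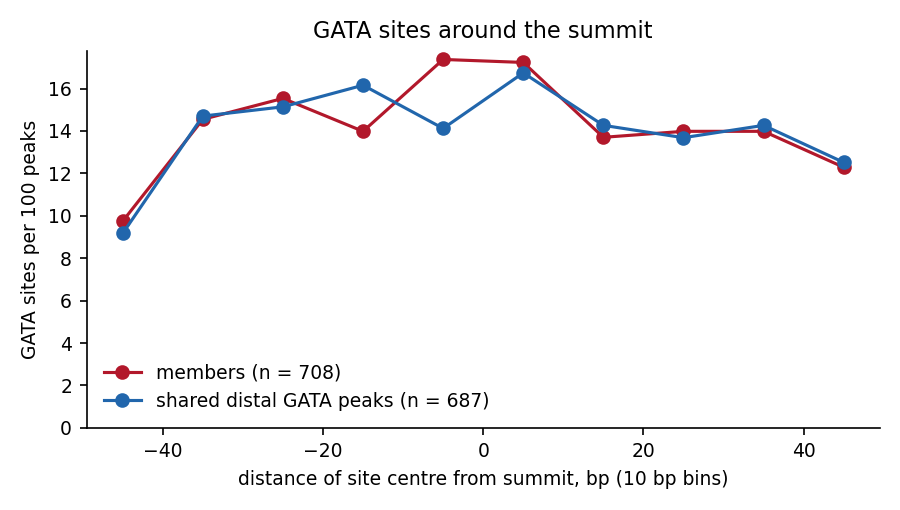
GATA sites per 100 peaks (y axis) by distance of the site centre from the summit in 10 bp bins (x axis, bp), for the 708 members and the 687 shared distal GATA peaks. Sites must lie wholly in the window, which leaves fewer positions in the outermost bins; both lines stay between 9.2 and 17.4 sites per 100 peaks, and the members are highest in the bins next to the summit.

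A CTG half-site followed at 8 to 10 bases by GATA on the same strand was present in 263 members (37.1%, 33.7 to 40.8). Of all distances from 0 to 20 bases, 9 was the most frequent, in 142 members (20.1%), then 8 in 88 (12.4%) and 10 in 46 (6.5%). Each other distance was found in 1.84% to 6.07% of members, with a median of 5.23%. The same spacings led in shared distal GATA peaks, at 22.7% for 9 bases, 16.0% for 8 and 8.44% for 10. In the member flanks 2.90% of windows had the composite arrangement, and among the 248 flank windows that held a GATA site the share was 10.9% (7.59 to 15.4). These flanks were not matched to the summits: they held 311 sites in 248 windows, against 1008 in 708. Summits were also richer in G and C than the flanks as a whole. The difference from the summits was not tested. With the order turned round, GATA first and CTG 8 to 10 bases after it, the share of members was 13.1% (10.8 to 15.8). The CTG was the end of a whole E-box of the form CANCTG in 36 of the 263 composites (13.7%), and the GATA belonged to a full WGATAR site in 233 (88.6%).

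**Figure D3:**
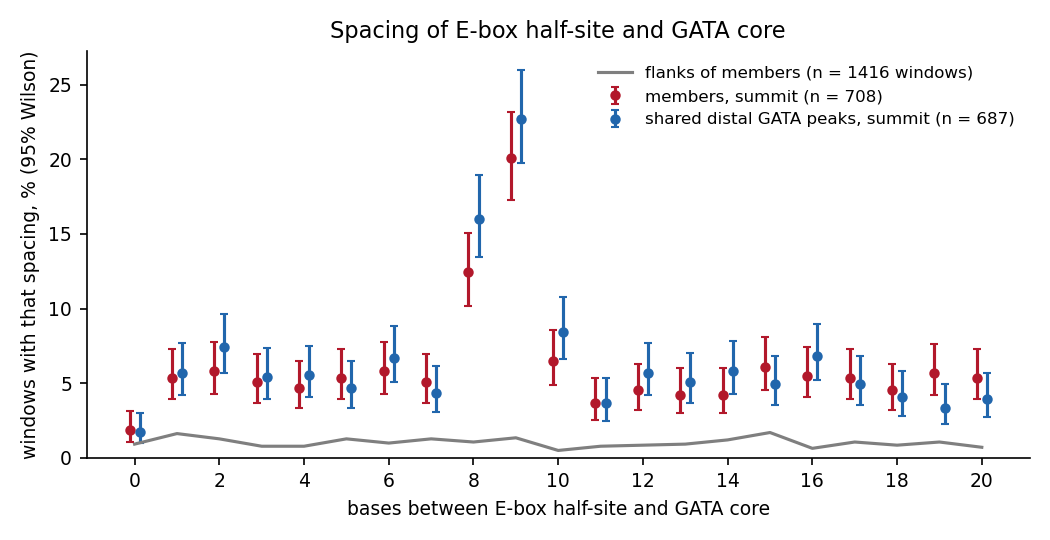
Percent of 100 bp windows (y axis) in which an E-box half-site is followed by a GATA core after the given number of bases (x axis), for summits of the 708 members, summits of the 687 shared distal GATA peaks and, as a line, the 1416 flanks of members. Bars are 95% Wilson intervals; 9 bases stands highest in both classes, at 20.1% of members and 22.7% of shared peaks.

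The composite was less frequent in members than in shared distal GATA peaks, of which 301 of 687 had it (43.8%, 40.1 to 47.5). The difference was 6.67 percentage points (95% interval 1.52 to 11.8, 2-sided Fisher's exact test, p = 0.0121). Since shared peaks had more fragments, the comparison was repeated within quartiles of summit fragments. Shared peaks exceeded members by 1.68 points with 12 to 21 fragments, 12.9 points (95% interval 1.25 to 24.4) with 22 to 27, 0.761 points with 28 to 37 and 4.14 points with 38 to 206. The adjusted p of the exact test was 0.136 for the second of these quartiles and 0.912 for each of the others, so the difference did not pass within any quartile. Each quartile held fewer peaks than the whole. In the top quartile fragment numbers were not alike, since members reached 62 and shared peaks 206. The part of fragment number in the difference was not tested. Within the members, those with and without the composite had medians of 24 and 23 fragments, 5.12-fold and 4.93-fold enrichment, and 53.2% and 47.0% of them lay in introns.

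Among 10 motifs counted on both strands at summits and flanks, the E-box form CAGCTG and the ETS core AGGAA were more frequent at member summits. CAGCTG was found in 12.1% of summits (9.94 to 14.8) and in 4.52% of flanks, with an adjusted p of 1.43e-06 in an exact 2-sided McNemar test. AGGAA, the core bound by ETS factors such as FLI1 and ERG, was found in 43.5% (39.9 to 47.2) and 33.5% (adjusted p = 0.00238 in the same exact test). The share of CAGCTG was 13.7% in shared distal GATA peaks, 12% in replicate 1-only distal peaks without a GATA site and 12.6% over all replicate 1 summits, and AGGAA was at 45.1%, 46.1% and 43.5% in these sets. The members were not tested against these sets. The general E-box CANNTG was found in 47.2% of summits and 41.2% of flanks and did not pass the exact test (adjusted p = 0.0716), nor did the SMAD string CAGAC at 30.5% and 22.9% (adjusted p = 0.0568) or the MEIS motif TGACAG at 11.0% and 7.70% (adjusted p = 0.0716). The TEAD motif GGAATG, the AP-1 and NF-E2 motif TGAGTCA, the RUNX core TGNGGT and the KLF core CACCC had adjusted p-values of 0.668, 0.264, 1 and 1. A control string, made of the letters of WGATAR in reverse order (ATAG with A or G before it and A or T after it), passed at 19.1% and 13.4% (adjusted p = 0.0351 in the exact test). It can overlap a GATA site, which the rule placed at every summit, and in the 358 peaks chosen for having none it was found in 5.59%. Summits had a mean of 49.3% G and C and flanks 45.5%, and the part of this difference in the motif shares was not tested. These p-values compare windows of 1 library.

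**Figure D4:**
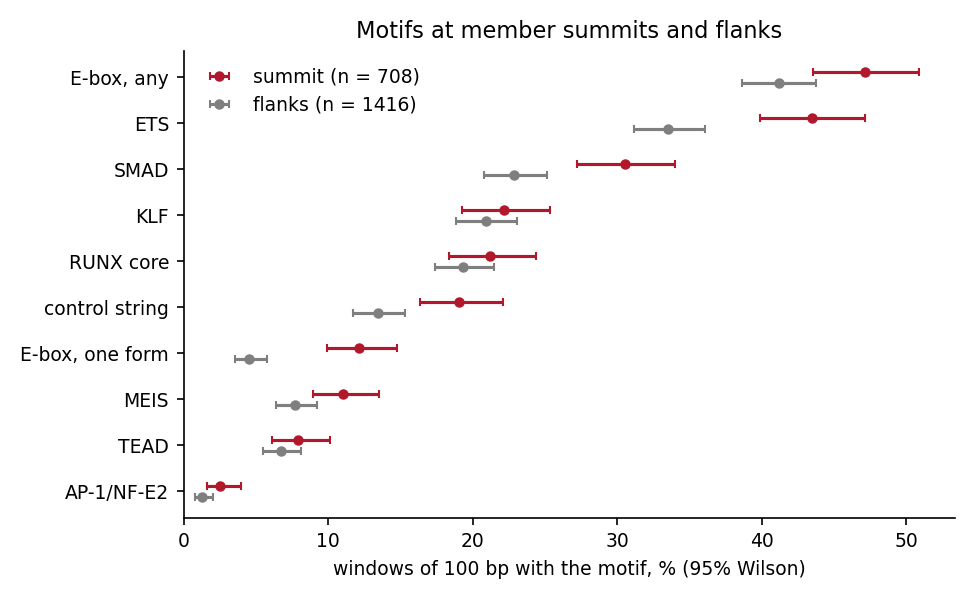
Percent of 100 bp windows with each of 10 motifs (x axis) at the 708 member summits and in their 1416 flanks, with 95% Wilson intervals. The single E-box form (12.1% against 4.52%) and the ETS core (43.5% against 33.5%) passed the test, as did the control string, which shares letters with the GATA site. The interval of the SMAD string also lies clear of that of its flanks, but it did not pass the adjusted test.

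All 2080 6-base words were then compared between summits and flanks with GATA sites masked. The share called more frequent at the summit in the same test was 0.865%, or 18 words, and the share called less frequent was 4.23%, or 88 words. The higher words were found in 5.37% to 21.3% of summits. CAGCTG was in 11.9% of summits and 4.52% of flanks, CAGATG in 15.5% and 6.85%, CTGCAG in 10% and 3.53%, CAGGAA in 21.3% and 11.8%, and CAGGCA in 18.2% and 8.76%. CAGCTG and CAGATG are E-box forms, and CAGGAA holds the ETS core. Of the 18 higher words, 16 contained CTG or its complement CAG, as did 12.3% of all the words, a feature picked after the words were seen. Of the 88 lower words, 71 had at least 5 of 6 letters A or T, which was so for 11.0% of all the words. The lower G and C of the flanks, given with the motifs, moved with these words. Masking also took a mean of 8.52 bases from a summit window and 1.29 from a flank, which left fewer places for a word at the summit. The parts of both in the higher and lower words were not tested.

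By nearest protein-coding start site, the members belonged to 628 of 22238 genes (2.82%). Of these genes, 562 had 1 member, 55 had 2 and 11 had 3 or more, and 135 (21.5%) were also nearest to a shared peak. Of all 22238 genes, 832 (3.74%) were nearest to a shared peak. The overlap was not tested, and the length of DNA around each gene was not adjusted for. In all, 165 members (23.3%) had such a gene, compared with 25.4% of replicate 1-only distal peaks without a GATA site. Nearest is a matter of distance only, and neither the expression of a gene nor contact with it was measured here.

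The strongest members lay near genes of varied function. That near Gm17541 (chr12:4686734-4687075) was in an intron of Itsn2, which encodes a scaffold protein of endocytosis, and had 47 fragments (95% counting interval 34.5 to 62.5) over a background of 4.06, a fold enrichment of 12.7. That near BC003266 (chr4:126940449-126940885) had 56 fragments (42.3 to 72.7) and 12.1-fold enrichment, and was 4.53 kb from a shared peak. In an intron of Gm1631, a member had 43 fragments and 11.6-fold enrichment, and its nearest shared peak was 2093 kb away. The member in an intron of Fbxo34, an F-box protein gene, had 42 fragments and 11.3-fold enrichment. Those at Cd59a, which encodes an inhibitor of complement, Cacna1i, a calcium channel subunit gene, Cyp26a1 and Igsf21 had 44, 49, 45 and 39 fragments and 11.3-fold, 11.1-fold, 10.9-fold and 10.5-fold enrichment. The member at Igsf21 was tied in fold enrichment with those at Mast4 and Kcnj6, each with 39 fragments over the same background. At Cd59a only 44.2% of the 24-base words of the window occurred once in the genome, while the other 7 windows were wholly unique. By counting error alone, the fragment intervals of these 8 members overlapped.

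Some genes had several members. Dusp4, which encodes a phosphatase of MAP kinases, had 5, all upstream of its start site at 15.3, 23.9, 58.5, 108.0 and 180.0 kb, with 28, 42, 33, 29 and 20 fragments. The one at 23.9 kb (chr8:35846346-35846601) was the strongest, at 10.4-fold, and was 0.994 kb from a shared peak. The one at 180.0 kb was in repeated sequence, with 63.6% unique words. Tead1, a transcription factor of the Hippo pathway, had 4 members with 18 to 28 fragments and 3.46-fold to 6.76-fold enrichment, 3 of them in its introns, the nearest shared peak being 1659 kb away and the nearest replicate 2 peak 6.76 kb away. Cyp26a1, whose enzyme breaks down retinoic acid, had 3 members 4.66, 18.5 and 21.6 kb downstream of its start site, with 45, 54 and 31 fragments and 10.9-fold, 9.18-fold and 6.57-fold enrichment. Lrrfip1 had 3 intronic members with 31, 25 and 24 fragments, and the first 2 of these were adjacent peaks. Gm11003 also had 3, with 37, 19 and 29 fragments.

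Members were then counted in 8 lists of genes of blood, vessel, heart and signalling, of which 229 genes were matched. Over all lists 28 genes had a member, and the lists are described beside the 2.82% of all genes, without a test and without adjustment for the length of DNA around each gene. The largest share was that of the Polycomb genes, 6 of 28 (21.4%, 10.2 to 39.5), and the smallest that of megakaryocyte and platelet genes, 0 of 18, whose interval reached 17.6%. Genes of every list were nearest to shared peaks too, beside 3.74% of all genes. They included 6 of 28 Polycomb, 12 of 30 blood transcription factor and 3 of 18 megakaryocyte and platelet genes. High shares were thus not particular to the members, and the lists were written with earlier results of these data known.

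**Figure D5:**
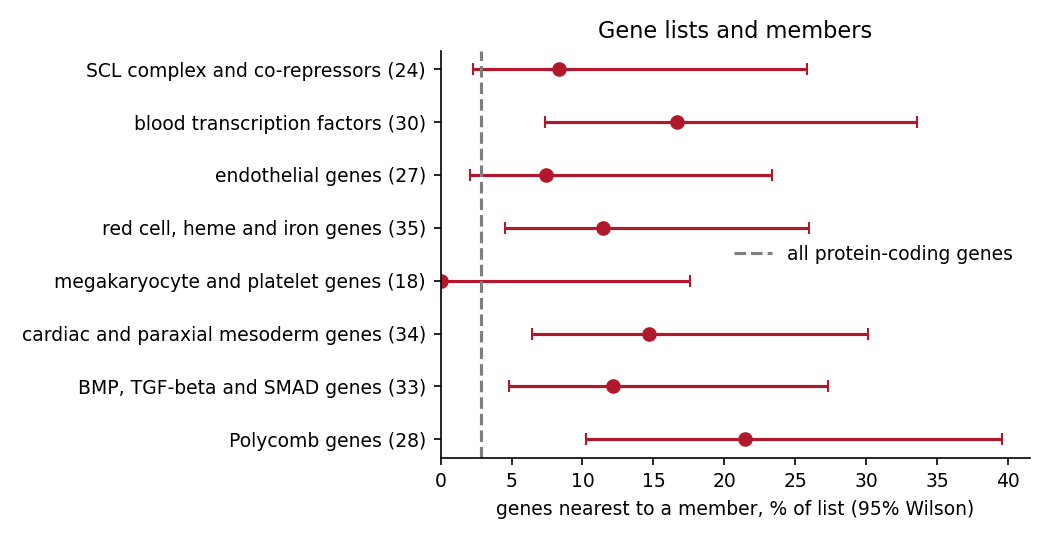
Percent of the genes of each list that were the nearest gene of at least 1 member (x axis), with 95% Wilson intervals and the number of matched genes in brackets. The dashed line is the share of all protein-coding genes, 2.82%; the points run from 0% of megakaryocyte and platelet genes to 21.4% of Polycomb genes.

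Of 30 blood transcription factor genes, 5 had 9 members between them (16.7%, 7.34 to 33.6). Of these 5, 4 also had a shared peak, beside 21.5% of all genes with a member, a count of few genes that was not tested. Fli1, an ETS factor of blood and endothelium, had 3 members with 19, 19 and 20 fragments, 2 in its introns and 1 upstream at 18.3 kb. Ikzf1, the gene of Ikaros, a zinc finger factor of lymphoid cells, had 2 intronic members with 36 and 28 fragments (7.04-fold and 5.45-fold, chr11:11629286-11629571 and chr11:11635236-11635498) and was the gene without a shared peak. Its relative Ikzf2 had 2, with 30 and 22 fragments. Runx1, a master regulator of definitive blood formation, had 1 member 246 kb upstream with 22 fragments (5.09-fold), beside 6 shared peaks. Nfe2l2, which encodes the stress response factor NRF2, had 1 with 16 fragments.

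In the list of SCL complex and co-repressor genes, 2 of 24 had a member (8.33%, 2.32 to 25.8). Zfpm1, the gene of the GATA cofactor FOG1, had a member 33.0 kb downstream of its start site (chr8:124838828-124839304) with 32 fragments and 6.11-fold enrichment, 1.0 kb from a shared peak. At Gse1 a member 24.2 kb upstream had 24 fragments, 4.33-fold enrichment, and a shared peak 1.95 kb away. These genes had 4 and 5 shared peaks of their own.

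Among 27 endothelial genes, 2 had a member (7.41%). Efnb2, the gene of the arterial ligand ephrin-B2, had members 123 and 157 kb downstream of its start site with 44 and 27 fragments (8.26-fold and 3.38-fold), of which the first carried the composite arrangement. Plxnd1, a semaphorin receptor gene, had 1 in an intron with 24 fragments and no shared peak. Of 35 red cell, heme and iron genes, 4 had 1 member each (11.4%). They were Spnb1, which encodes a spectrin of the red cell membrane, Abcb10, a mitochondrial transporter gene, Slc25a37, which encodes an iron importer of mitochondria, and Epb4.1, the gene of membrane protein 4.1. Their members had 19, 24, 26 and 18 fragments and 5.24-fold, 4.60-fold, 4.49-fold and 3.66-fold enrichment. The Spnb1 member lay in a coding exon of Plekhg3.

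In the cardiac and paraxial mesoderm list, 5 of 34 genes had a member (14.7%, 6.45 to 30.1). None of these 5 had a shared peak, beside 21.5% of all genes with a member. With only 5 genes this count does not set the list apart, and it was not tested. Tbx5 had a member in an intron (chr5:120325524-120325815) with 30 fragments and 5.89-fold enrichment. Gata4 had 2, both upstream, at 67.1 and 63.6 kb with 36 and 22 fragments. Nkx2-5 had 1 at 9.35 kb upstream with 37 fragments, Gata5 had 1 at 20.3 kb upstream with 23, and Myocd had 1 with 24 fragments and 2.55-fold enrichment. These genes encode transcription factors or a cofactor of the heart. Across the list, 5 other genes had a shared peak and no member.

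Of 33 BMP, TGF-beta and SMAD genes, 4 had a member (12.1%). Smad7 and Smad6, which encode inhibitory SMADs, had 1 each with 25 and 35 fragments (6.73-fold and 4.61-fold) beside 7 and 3 shared peaks. Smad2, which encodes a SMAD activated by TGF-beta receptors, and Tgfbr3, a TGF-beta co-receptor gene, had 1 each with 26 and 24 fragments and no shared peak. Of the 6 Polycomb genes, 5 had a shared peak too, and neither this nor the like counts of the other lists was tested against the 21.5%. Rybp, a subunit of variant Polycomb complexes, had members 44.3 kb upstream and 117 kb downstream of its start site with 20 and 30 fragments. Pcgf5 and Bcor, which encode subunits of variant complexes, had 1 each with 21 and 16 fragments, Phc1, a gene of canonical complexes, had 1 with 18, and Ezh1, a histone methyltransferase gene, had 1 with 18 that lay 0.850 kb from a shared peak.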

How the data were processed

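The data were 2 ETO2 ChIP samples and 1 input of FLK1+ cells, grouped by their labels. Per the study's methods and processing notes, the authors trimmed read pairs (Trim Galore), aligned them to mm9 with Bowtie keeping reads with 1 alignment, removed duplicates (SAMtools) and masked regions (bedtools), and called peaks at a q-value of 0.05 with MACS2 2.0.10, replicate 1 against the input and replicate 2 without one. Each deposited list gives, as the authors' caller calculated them, a score (a rescaled q-value), the fold enrichment at the summit (a ratio), −log10 p and q, and the summit position. The score was not used. The series list gives positions only.

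The members, gene lists and motifs were chosen with earlier results of these data known. Summit fragments and local background were solved from fold and p under a Poisson model, which gave whole numbers for 100% of 2335 and 1873 peaks (error in −log10 p below 0.003), with replicate 1 scaled up by 1.34. Positions are on mm9, counted from 1, with GENCODE M1 genes. Shares carry 95% Wilson intervals, fragments exact Poisson intervals, and differences Newcombe intervals, all for counting error only. Motifs and 6-base words were tested against each flank by an exact 2-sided McNemar test, the larger p kept (and set to 1 for words whose flanks fell on opposite sides of the summit), with Benjamini-Hochberg adjustment over 10 motifs or 2080 words, and shares between peak classes by a 2-sided Fisher's exact test. Peaks are not replicates, and all p-values compare regions of 1 library. Members are named by a rule: the 8 of highest fold (the eighth place was a tie, settled by the order of peak names), the 5 highest with the composite, the 5 genes with most members and up to 5 genes of each list. Python 3.11.15, numpy 2.4.6, scipy 1.17.1, pandas 2.3.3 and pysam 0.24.0 were used, tested on simulated data. Alternatives were other summit windows, a stricter q-value of 1e-05, widened replicate 2 peaks, another promoter limit, unique windows, no use of replicate 2 and other flanks.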

Additional observations from a re-analysis of the deposited data

How the results depend on the processing

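Of 59 alternative values, 48 were classed as unchanged. Those with a test kept its direction and outcome, but those without one included shifts in the number of members. Against 708 members, there were 892 with the GATA site sought in 200 bp around the summit. The stricter q-value left 612, a promoter limit of 5 kb 611, widened replicate 2 peaks 698 and unique windows 674. With the 5 kb limit the median distance to a start site was 35.6 kb. The largest shifts were to 431 with the GATA site sought in 50 bp and to 1395 without replicate 2. In the latter the median rose to 29 fragments because shared peaks entered. The general E-box CANNTG passed the test with a 200 bp window (48.1%) and without replicate 2 (47.2%). The composite difference did not pass within fragment quartiles (1.68, 12.9, 0.761 and 4.14 points), each with fewer peaks. The share within 50 kb of a shared peak turned from below to above that of peaks without a GATA site, at 18.3%, with replicate 2 peaks widened by 500 bp, and was not significant either way. With flanks 1000 bp away 29 words were higher, 15 of them among the 18 called at 500 bp, and with flanks at 300 bp 15 were, 9 of them among the 18. The causes of the last 2 changes were not tested. Without replicate 1 there are no members. No paired analysis was possible because the ChIP and input samples share only 1 replicate number and each list is a single library. Each member's values come from a single library, so their replicate error is unknown.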
